A study of Mus musculus with 10 samples.

Results

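The potassium channel genes described here are the genes for the pore-forming subunits of potassium channels, measured in tissue from the layer of granule cells in the dorsal dentate gyrus. This region is the entry gate of the hippocampus. They were taken from the count table by symbol: the Kcna, Kcnb, Kcnc, Kcnd, Kcnf, Kcng, Kcnh, Kcnj, Kcnk, Kcnma, Kcnn, Kcnq, Kcns, Kcnt, Kcnu and Kcnv genes, protein-coding, without Kcnj8 and Kcnj13, and with at least 10 counts in 5 or more libraries. Of 75 protein-coding genes that match by symbol, 65 met the count rule, among 49315 genes in the table and 17080 genes tested. The members fall into 37 voltage-gated (Kv) genes, 11 inward rectifier (Kir) genes, 10 two-pore-domain (K2P) genes and 7 genes of the calcium- or sodium-activated class. All 65 passed the low-count filter of the test.

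The study compared 5 male C57 BL/6 mice of a cocaine group with 5 of a saline group, both named for self-administration, with 1 poly(A) RNA library each. The groups share strain, sex, dissection and the self-administration label, and differ in the drug named (cocaine or saline). The sources used here give no age, dose, schedule or batch. The tissue was a dissected layer and not sorted cells, so fewer cells of a type and less RNA per cell cannot be told apart.

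Potassium channels let potassium leave the cell and so set the resting potential, end the action potential and space out repeated firing. Kv channels open when the membrane is depolarised, Kir channels pass current best near rest, and K2P channels carry a leak current. Most channels of the calcium- or sodium-activated class open when those ions build up during firing. Granule cells of the dentate gyrus are known for a very negative resting potential and sparse firing, which depend on such channels. Glial cells carry their own set, among them the astrocyte channel Kir4.1, encoded by Kcnj10, which clears potassium from around active neurons.

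Total counts ran from 34991548 to 46481533 per library. Each of 10 granule cell markers, such as Prox1 and Calb1, had a count above 0 in every library. The same held for the markers of the other lists, so detection alone does not show granule cell identity. The libraries also held other cells. The summed level of 12 oligodendrocyte markers, myelin genes such as Mbp and Mog, ran from 3922 to 10466 CPM with cocaine and from 3870 to 5550 CPM with saline, and all 12 had a fold change above 1. The 10 granule cell markers all had a fold change below 1, with summed levels of 1261 to 2257 CPM with cocaine and 1650 to 2252 CPM with saline. Cocaine replicate 5 had the highest oligodendrocyte and the lowest granule cell sum of the 10 libraries. Summed levels of 10 interneuron markers were 811 to 938 CPM with cocaine and 881 to 974 CPM with saline (4 above a fold change of 1). For the pyramidal cell markers of CA1 and CA3 they were 1473 to 2020 and 1586 to 2250 CPM, and of the 9 tested 3 were above. For 10 pericyte and smooth muscle markers they were 170 to 282 and 204 to 244 CPM (6 above). No marker of any list passed the adjusted test in edgeR.

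Levels of the members in saline mice ran from 0.0688 to 66.2 CPM per kb, with a median of 5.36. They are given here as CPM, counts scaled to a common library size after TMM normalization, and between genes as CPM per kb of annotated exon. Kcnk1, the leak channel TWIK-1, had the highest level in saline mice, at 66.2 ± 2.90 CPM per kb. Kcnj4, the inward rectifier Kir2.3, stood at 63.6 ± 11.9 CPM per kb. Among the others named here, the levels were highest for Kcnj3, the GIRK1 subunit opened by G proteins, at 45.7 ± 5.37 CPM per kb, Kcnj10 at 45.5 ± 5.99 CPM per kb, Kcnj9, the GIRK3 subunit, at 39.2 ± 3.57 CPM per kb, and Kcnd2, the A-type channel Kv4.2, at 38.0 ± 3.10 CPM per kb. In this order, Kcnk1 and Kcnj4, Kcnj3 and Kcnj10, and Kcnj9 and Kcnd2 differed by less than the larger SD of the pair, while Kcnj4 and Kcnj3, and Kcnj10 and Kcnj9, differed by more. At the low end stood Kcnq1 at 0.0688 ± 0.0191 CPM per kb, Kcnk5 at 0.121 ± 0.0475 CPM per kb and Kcng3 at 0.205 ± 0.0198 CPM per kb. Class medians of these saline levels, in CPM per kb, were 10.7 for Kv, 7.70 for Kir, 3.06 for K2P and 4.14 for the calcium- or sodium-activated class. Union exon lengths include long untranslated ends, so genes with long ends would stand higher on a shorter transcript model.

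**Figure D1:**
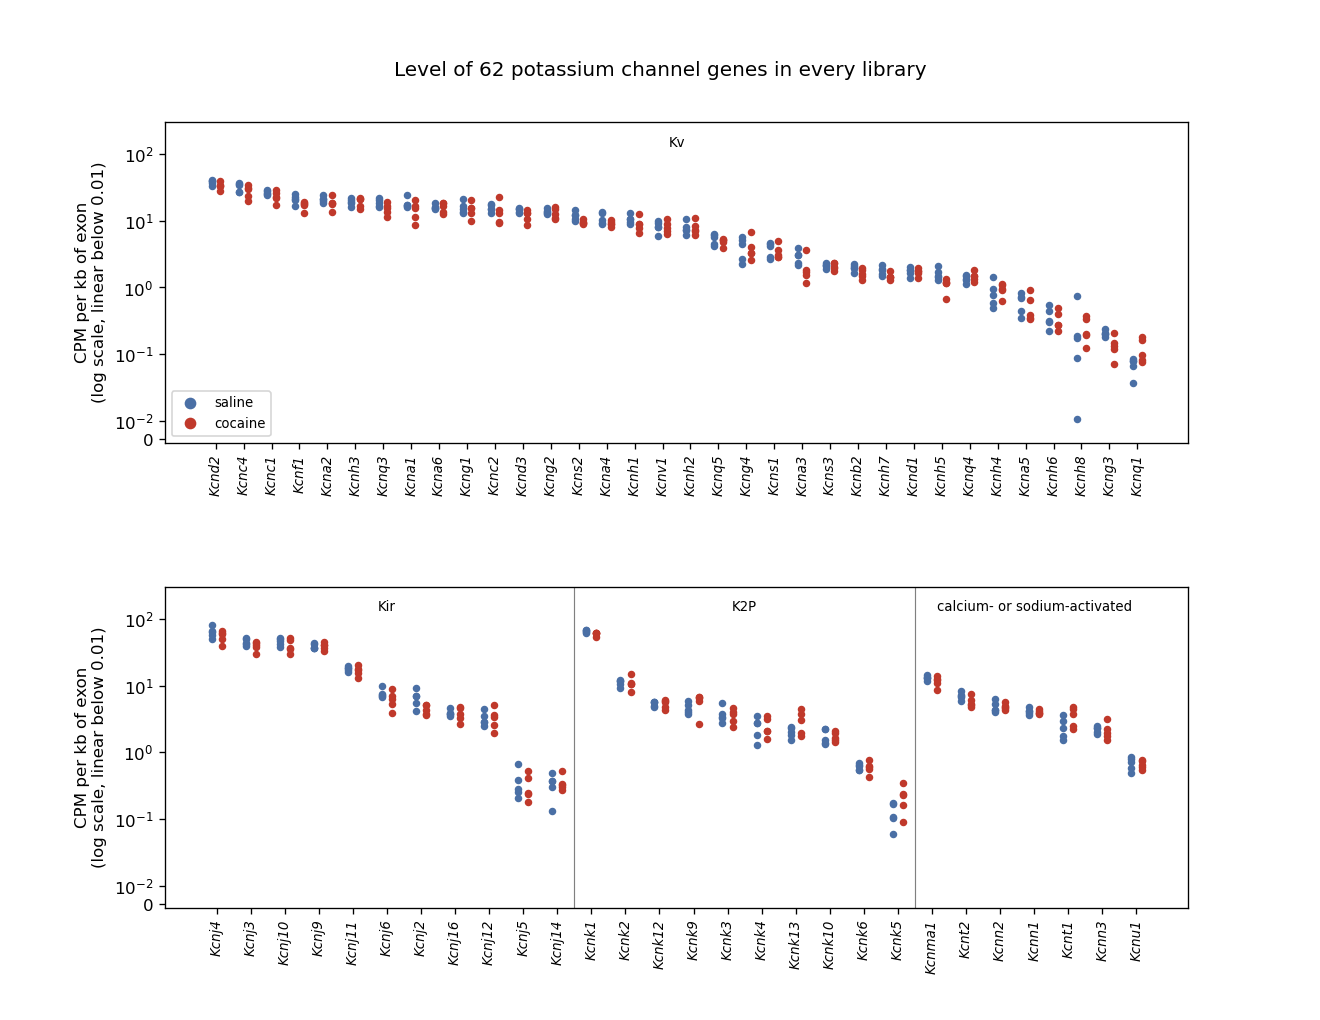
Level of 62 of the 65 genes in CPM per kb of exon (log axis), with 1 point per library, saline on the left and cocaine on the right of each gene. Kcnj4, Kcnk1 and Kcnma1 lead the Kir, K2P and calcium- or sodium-activated classes, Kcnq1 and Kcnk5 lie at the bottom, and no gene drawn has its 5 cocaine points apart from its 5 saline points.

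The rule on counts left out 10 genes: Kcna7, Kcna10, Kcnv2, Kcnj1, Kcnj15, Kcnk7, Kcnk15, Kcnk16, Kcnk18 and Kcnn4. Their highest count in any library was 13, for Kcnn4, and Kcnk16 and Kcnk18 had 0 counts in all 10 libraries. Just inside the rule, Kcnq1 reached 10 counts in 9 libraries, with 6 to 30 counts, as did Kcnk5 with 8 to 47, Kcng3 with 9 to 37 and Kcnh8 with 2 to 136.

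Most members had somewhat lower levels with cocaine, and none passed the test over all genes. A log2 fold change below 0 was found for 52 of the 65 (80%), where 46.4% of all genes tested lay below 0, and the median was −0.10, against 0.02 over all genes tested. The fold changes ran from −0.59 for Kcng3 to 0.80 for Kcnk5, both at under 1 CPM. At an unadjusted p under 0.05 in edgeR, 10 members were lower (15.4%, background 3.33%) and 1 was higher (1.54%, background 5.58%). The 10 were Kcns2, Kcnh5, Kcnf1, Kcnh7, Kcnb2, Kcnq3 and Kcna4 among the Kv genes, with Kcnj2, Kcnk1 and Kcnt2, and the 1 was Kcnk13. After adjustment over all genes, edgeR called 0 of the 65, with a smallest adjusted p of 0.504, and 0% of all genes. DESeq2 called 0 of the 65 and 0.0806% of all genes, and at an unadjusted p under 0.05 it had 11 lower members and 1 higher, where 3.82% of all genes were lower and 5.85% higher in that fit. Limma voom with sample weights called 0 of the 65 and 0.556% of all genes. At the same unadjusted threshold voom had 10 lower and 2 higher members, where 6.65% of all genes were lower and 10.3% higher. For 0 members did the libraries of the groups not overlap, where 0.609% of all genes tested were lower and 0.773% higher in that way.

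**Figure D2:**
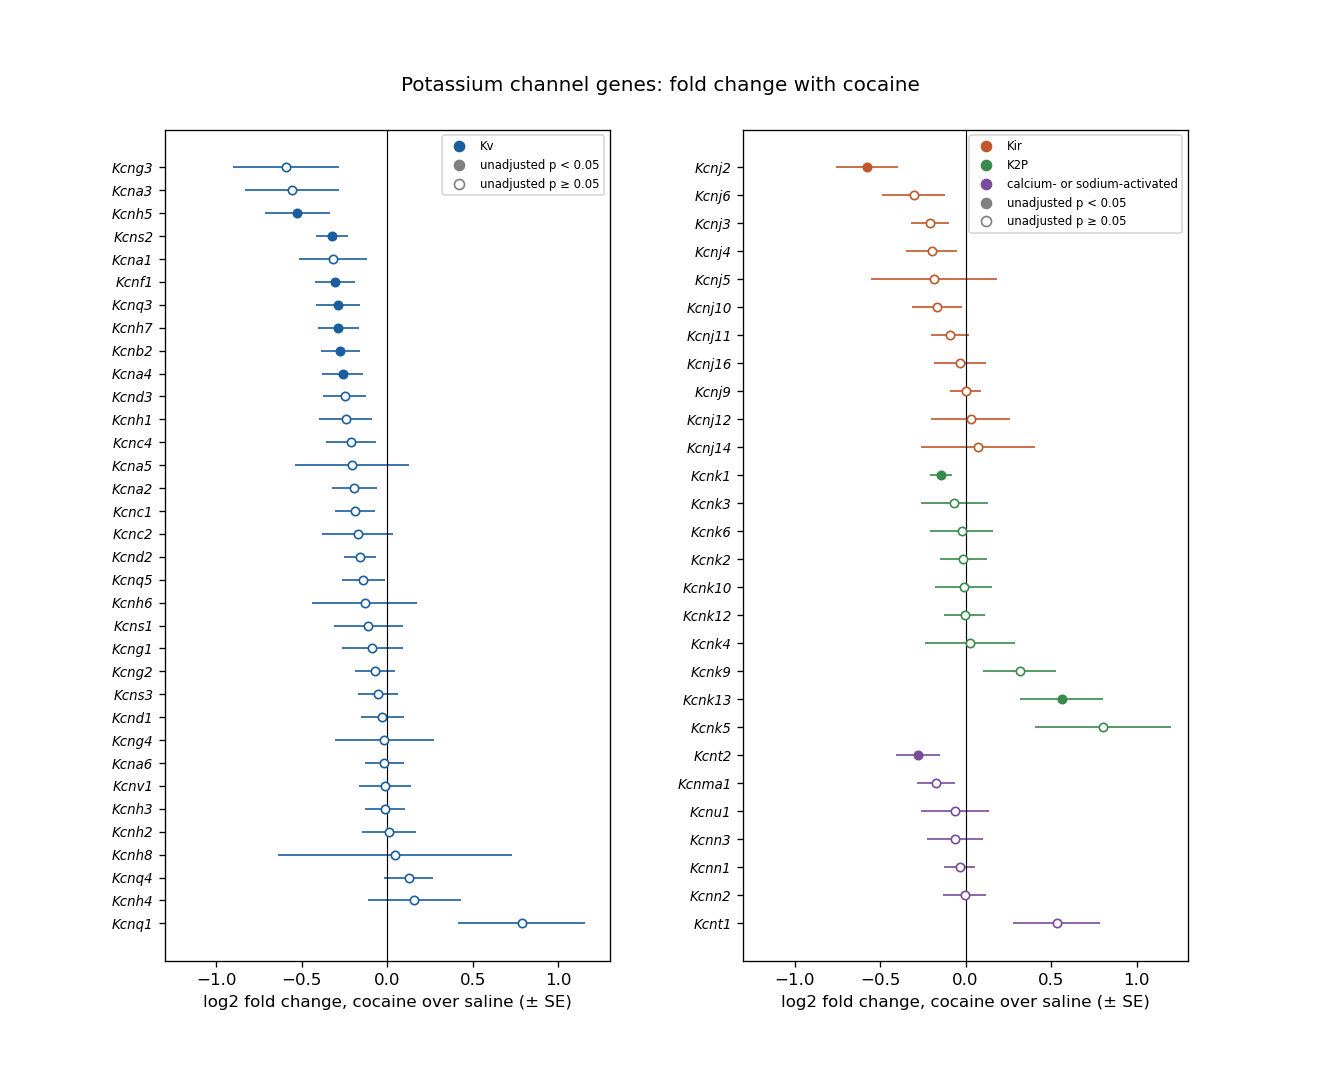
Log2 fold change of cocaine over saline for 62 of the 65 members (horizontal axis; points are edgeR estimates, bars ± SE), coloured by class, filled at an unadjusted p under 0.05. Of 62 points 49 lie left of 0, 10 of them filled, and of the 13 to the right only Kcnk13 is filled.

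The count of lower members rested on single libraries more than their median did. It was 15 without cocaine replicate 2 (background 6.62%), 4 without cocaine replicate 3, 5 without cocaine replicate 4, 6 without cocaine replicate 5, 5 without saline replicate 1, 5 without saline replicate 4 and 4 without saline replicate 5, with background shares of 1.6%, 2.4%, 5%, 1.83%, 2.92% and 1.78% in the same fits. Kcns2 and Kcnj2 were among the lower members at an unadjusted p under 0.05 in each of the 10 fits that left out 1 library. The count of higher members was 0 without cocaine replicate 1, cocaine replicate 4 or saline replicate 1, 2 without cocaine replicate 5 or saline replicate 3, and 3 without cocaine replicate 2 or 3. Over all genes the higher share was 3.96%, 4.61%, 3.55%, 8.86%, 5.47%, 6.96% and 4.72% in these fits, in that order.

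Across libraries, the median of all members lay lowest in cocaine replicate 5, which did not hold in every class. The median over the 65 genes of the log2 difference from each gene's saline mean was −0.12, −0.02, −0.16, −0.09 and −0.29 in cocaine replicates 1 to 5, and ran from −0.03 to 0.03 in the saline libraries. So 4 of the 5 cocaine libraries lay below every saline library, and cocaine replicate 2 did not. The saline libraries make up the mean they are compared with, which holds their medians around 0, so this order is partly built in. Within classes the saline medians ran wider, from −0.13 to 0.06 for Kir and from −0.16 to 0.10 for K2P. By class, cocaine replicate 5 lay at −0.41 for Kv and −0.34 for Kir, the lowest library of each. For K2P it was the highest library, at 0.13. In the calcium- or sodium-activated class it lay at −0.18, and cocaine replicate 3 was lowest, at −0.26. Of the 65 genes, 24 had their lowest level in cocaine replicate 5, against 1 to 7 in each of the other libraries, and 14 had their highest in saline replicate 1. The summed level of the members was 4459 ± 513 CPM in the cocaine group and 4976 ± 148 CPM in the saline group (SD, n = 5 each), with 3611 CPM in cocaine replicate 5. Without cocaine replicate 5 the median log2 fold change of the members was −0.10, with 47 of 65 below 0. The median of all genes tested was −0.007 in that fit, against 0.02 with all libraries. More of all genes therefore lay below 0 in that fit than the 46.4% with all libraries.

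**Figure D3:**
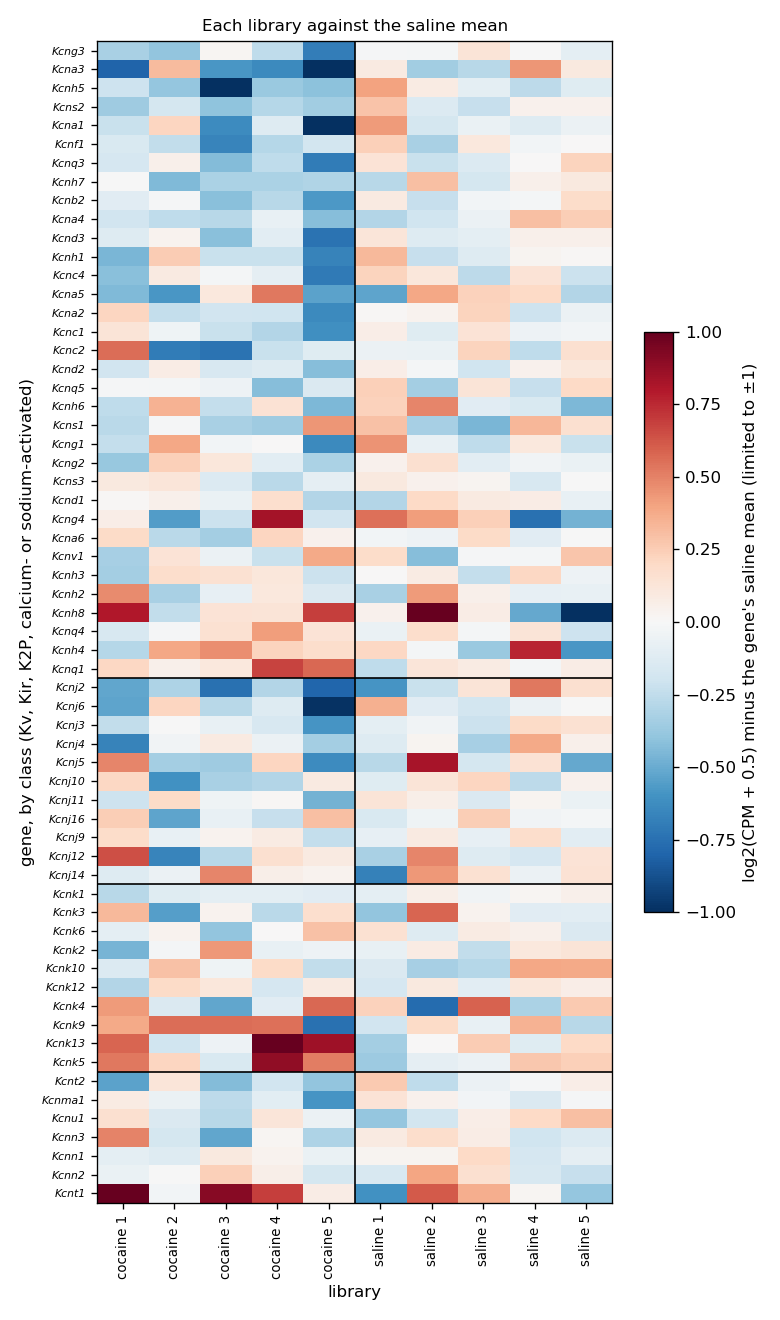
Difference in log2(CPM + 0.5) of 62 of the 65 members (rows, grouped by class and ordered by fold change) from its saline mean in each library (columns), with colours limited to ±1. Cocaine replicate 5 is the darkest blue column among the Kv genes, while Kcnt1, Kcnk13 and Kcnk5 are red in several cocaine libraries.

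Cell type markers differed between the same libraries, and their part in the members' values was not tested beyond the following fits. With the oligodendrocyte marker score as a covariate the median of the members was −0.08, with 41 of 65 below 0 and 7 lower at an unadjusted p under 0.05, against a background of 3.38%. With the granule cell score, an alternative chosen after the values were seen, the median was −0.10, with 47 of 65 below 0 and 8 lower, against a background of 3.89%. Without cocaine replicates 1 and 5, the libraries lowest in granule cell markers, the median was −0.09 and 43 of 65 were below 0. The GC content of the members' longest transcripts had a median of 52.4%, against 49.6% over all genes tested. With offsets for GC content and length the median log2 fold change of the members was −0.12. The median of all genes tested, 0.02 without these changes, moved as well. It was −0.02 with the offsets and −0.01 with the oligodendrocyte score. With the granule cell score, and without cocaine replicates 1 and 5, the median of all genes was −0.007. With medians below 0, more of all genes lay below 0 in these fits than the 46.4% of the main comparison. The counts of members below 0 are therefore not to be set against that share.

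**Figure D4:**
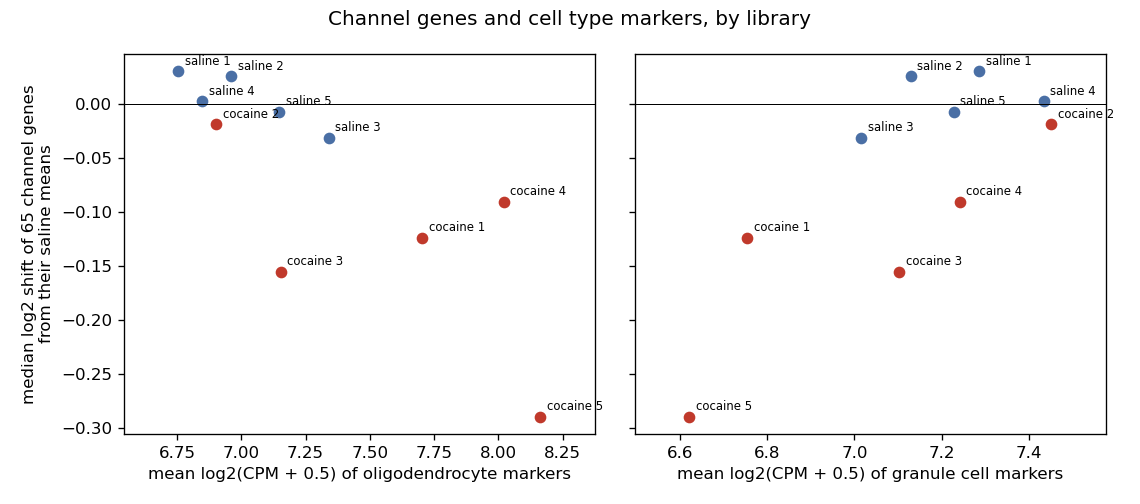
Median log2 shift of the 65 genes from their saline means (vertical axis) against the mean log2(CPM + 0.5) of the oligodendrocyte markers (left) and of the granule cell markers (right), 1 point per library, cocaine in red and saline in blue. Cocaine replicate 5 lies at −0.29, highest in oligodendrocyte and lowest in granule cell markers, and cocaine replicate 2 lies with the saline libraries.

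Voltage-gated channels are the largest class. Of 37 Kv genes 32 had a fold change below 1 and the median of log2 values was −0.17. In edgeR an unadjusted p under 0.05 was found for 7 lower (18.9%) and 0 higher genes, where 3.33% of all genes tested were lower and 5.58% higher. By family, all 6 Kv1 genes (Kcna), all 4 Kv3 genes (Kcnc), all 3 Kv4 genes (Kcnd) and all 9 silent subunits (Kcnf, Kcng, Kcns and Kcnv) were below 0, with medians of −0.23, −0.18, −0.16 and −0.09. The Kv7 genes (Kcnq) had 3 of 5 below 0 and a median of −0.14, and the EAG, ERG and ELK genes (Kcnh) had 5 of 8 and a median of −0.07. Under upper-quartile scaling 44 of the 65 members were below 0, and the Kv median was −0.15, where the median of all genes tested was 0.04. Without cocaine replicate 5 the Kv median was −0.10, and with the oligodendrocyte score it was −0.08. All genes tested had medians of −0.007 and −0.01 in these fits. No fold change of a Kv gene passed over all genes tested.

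Kcns2 had the smallest p of all members. It encodes Kv9.2, a silent subunit that forms no channel alone and changes Kv2 channels when it joins them, and lies at chromosome 15, 34837355 to 34843407 on mm10. Kcns2 stood at 51.7, 58.7, 49.99, 54.1 and 52.0 CPM in cocaine replicates 1 to 5 and at 80.6, 60.3, 56.4, 68.2 and 68.1 CPM in saline replicates 1 to 5. The cocaine libraries were close together, 4 of 5 lay below every saline library, and cocaine replicate 2 lay within the saline range. The group means were 53.3 ± 3.34 CPM for cocaine against 66.7 ± 9.27 CPM for saline (SD over 5 mice each; log2 fold change −0.32, SE 0.09), with an unadjusted p of 0.00463 and an adjusted p of 0.504 in edgeR. The unadjusted p of Kcns2 was 0.0657 with the oligodendrocyte score and 0.106 with the Neat1, Malat1 and Meg3 share in the fit.

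Kcnf1, at chromosome 12, 17172100 to 17176888, encodes Kv5.1, another silent partner of Kv2. In cocaine replicates 1 to 5 the level of Kcnf1 was 91.0, 85.2, 63.7, 82.6 and 89.1 CPM, and in saline replicates 1 to 5 it was 119, 80.7, 109, 99.0 and 101 CPM. The cocaine libraries filled the lower part of the range, but only replicate 3 lay below every saline library. This gave means of 82.3 ± 10.9 CPM and 102 ± 14.2 CPM for cocaine and saline (SD over 5 mice each), a change in log2 of −0.31 (SE 0.12), an unadjusted p of 0.0198 and an adjusted p of 0.520 in edgeR. Kcnb2, which encodes the delayed rectifier Kv2.2 itself, had a log2 fold change of −0.27 (SE 0.12) from 29.9 ± 3.23 CPM in saline to 24.7 ± 3.88 CPM in cocaine mice. It was below every saline library in 3 cocaine libraries. With the oligodendrocyte score Kcnb2 was at −0.17 (unadjusted p = 0.235 in edgeR).

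Kcnh5 encodes Kv10.2, of the ether-à-go-go family, and lies at chromosome 12, 74897220 to 75177332. The level of Kcnh5 was 5.50, 4.79, 2.73, 4.85 and 4.73 CPM in the 5 cocaine libraries in order and 8.64, 6.82, 5.98, 5.29 and 5.88 CPM in the 5 saline libraries. All but cocaine replicate 1 lay below every saline library, at a low overall level. Means were 4.52 ± 1.05 CPM in cocaine mice and 6.52 ± 1.303 CPM in saline mice (SD over 5 mice each; log2 fold change −0.53, SE 0.19; unadjusted p = 0.0164 and adjusted p = 0.511 in edgeR). Kcnh7, which encodes the ERG channel Kv11.3, had a log2 fold change of −0.29 (SE 0.12) from 27.3 ± 4.40 CPM in saline to 22.4 ± 2.69 CPM in cocaine mice, and 4 of its 5 cocaine libraries lay below every saline library. Its exons overlap those of Gca on the opposite strand over 696 bases, and the strand setting of the counting is not given in the sources used here.

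Kcnq3 encodes a subunit of the M-current, which is switched off by acetylcholine and holds back repeated firing. Kcnq3 stood at 245, 285, 203, 230.0 and 169 CPM in cocaine replicates 1 to 5 and at 302, 235, 249.6, 275 and 319.6 CPM in saline replicates 1 to 5. Kcnq3 was lowest in cocaine replicate 5, and 3 cocaine libraries lay below every saline library. The group means were 226 ± 43.7 CPM for cocaine against 276 ± 35.1 CPM for saline (SD over 5 mice each; log2 fold change −0.29, SE 0.13), with an unadjusted p of 0.0449 and an adjusted p of 0.554 in edgeR. With the oligodendrocyte score the log2 fold change of Kcnq3 was −0.13 (unadjusted p = 0.397 in edgeR), and it had an unadjusted p under 0.05 in 10 of 22 alternatives. Kcnq5, another brain Kv7 gene, had a log2 fold change of −0.14 (SE 0.13) from 41.2 ± 7.38 CPM in saline to 37.4 ± 4.27 CPM in cocaine mice. Kcnq1, a channel of heart and epithelia, had a log2 fold change of 0.79 (SE 0.37) from 0.282 ± 0.0783 CPM in saline to 0.489 ± 0.198 CPM in cocaine mice. Its exons, 4.09 kb in all, overlap the antisense RNA Kcnq1ot1 over 121 bases. The mean of Kcnq1ot1 was 20.3 CPM in cocaine mice and 15.6 CPM in saline mice. Without the strand setting it is not known how reads within those 121 bases were assigned.

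Among the fast and A-type channels no gene passed an unadjusted p under 0.05 apart from Kcna4. Kcna4 encodes the A-type channel Kv1.4 of axons and terminals and had a log2 fold change of −0.26 (SE 0.12) from 53.2 ± 9.87 CPM in saline to 44.3 ± 3.96 CPM in cocaine mice. Only cocaine replicate 5 lay below every saline library. Kcna1 and Kcna2, the axonal channels Kv1.1 and Kv1.2, are next in role. Kcna1 had a log2 fold change of −0.32 (SE 0.20) from 87.0 ± 16.3 CPM in saline to 69.7 ± 22.5 CPM in cocaine mice. Kcna2 had a log2 fold change of −0.19 (SE 0.13) from 252 ± 27.1 CPM in saline to 220.2 ± 46.01 CPM in cocaine mice. Kcnd2 had a log2 fold change of −0.16 (SE 0.09) from 196 ± 16.0 CPM in saline to 175 ± 21.8 CPM in cocaine mice, and Kcnd3, encoding Kv4.3, had a log2 fold change of −0.25 (SE 0.13) from 137 ± 10.1 CPM in saline to 116 ± 23.2 CPM in cocaine mice. Kcnc4, encoding Kv3.4, had a log2 fold change of −0.21 (SE 0.15) from 118 ± 17.7 CPM in saline to 102 ± 21.7 CPM in cocaine mice. The exons of Kcnd3 overlap an antisense RNA over 165 bases. Those of Kcna6, Kcnj3, Kcnma1 and Kcnk2 overlap genes on the opposite strand over 2355, 1621, 1016 and 604 bases, and further members have such overlaps. Without the strand setting of the counting, it is not known how reads in these overlaps were assigned, and the levels of these genes may be affected.

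**Figure D5:**
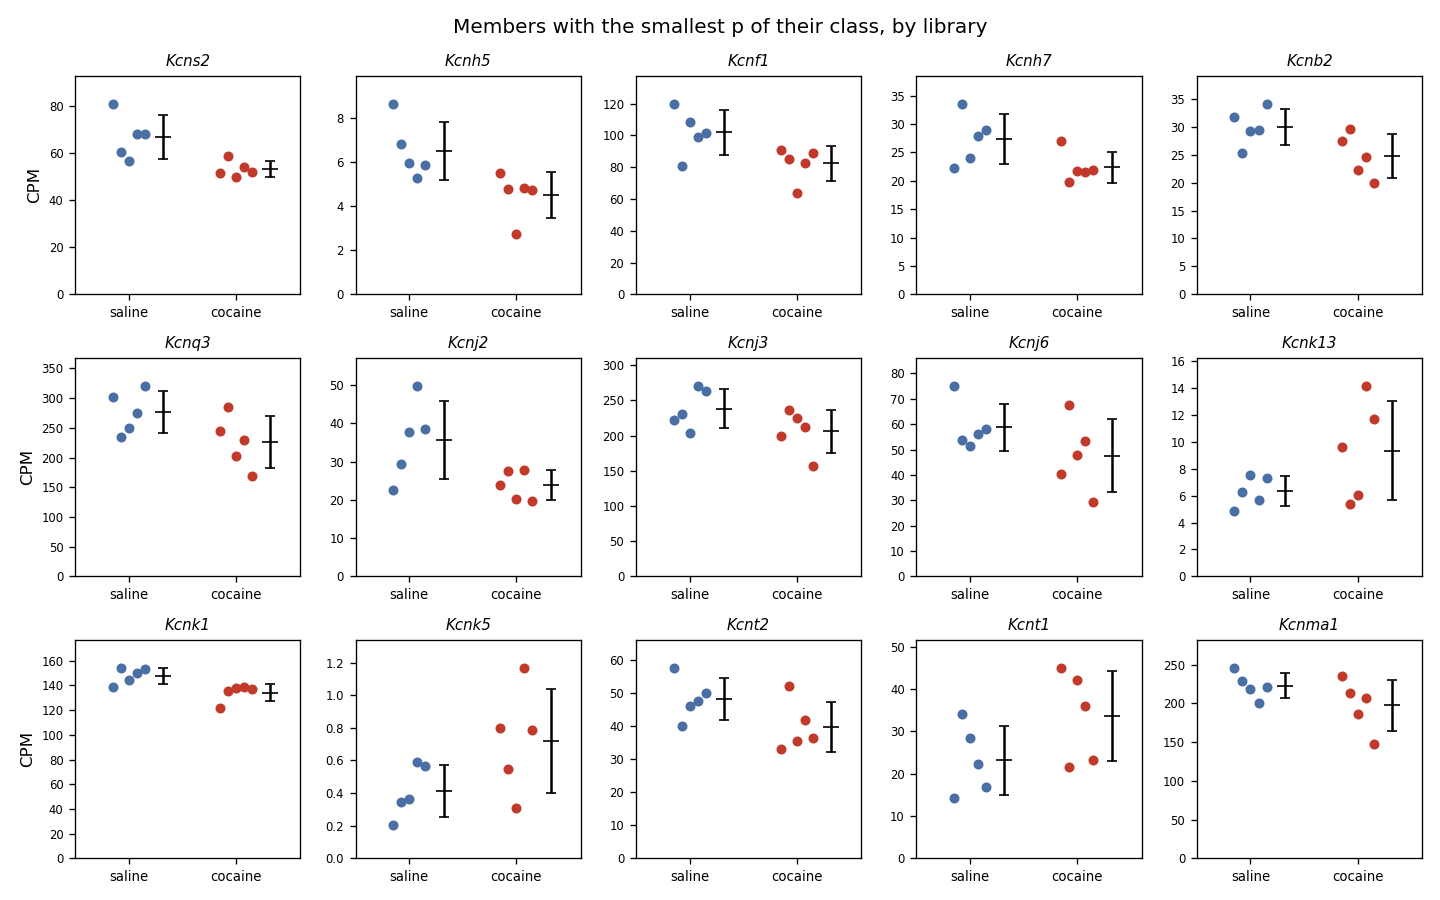
CPM (vertical axis, from 0) in every library for the members with the smallest p of their class, saline in blue and cocaine in red, with the mean ± SD beside each group of 5. The groups overlap in each panel; Kcns2, Kcnh5, Kcnh7 and Kcnk1 have 4 of 5 cocaine points below every saline point.

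Of the inward rectifier genes 8 of 11 had a fold change below 1, and the median of log2 values was −0.17. At an unadjusted p under 0.05 in edgeR there was 1 lower gene (9.09%) and 0 higher genes, where 3.33% of all genes tested were lower and 5.58% higher. The lower gene was Kcnj2, which encodes Kir2.1, a strong rectifier that holds granule cells near the potassium potential, and lies at chromosome 11, 111066164 to 111076821. In cocaine replicates 1 to 5 the level of Kcnj2 was 23.8, 27.6, 20.3, 27.9 and 19.6 CPM, and in saline replicates 1 to 5 it was 22.7, 29.4, 37.6, 49.7 and 38.5 CPM. The cocaine libraries lay in a narrow band, and the saline libraries ran from inside that band up to 49.7 CPM in replicate 4, so the groups overlapped at saline replicate 1. This gave means of 23.9 ± 3.92 CPM and 35.6 ± 10.2 CPM for cocaine and saline (SD over 5 mice each), a change in log2 of −0.58 (SE 0.18), an unadjusted p of 0.00725 and an adjusted p of 0.504 in edgeR. Without the 3 libraries richest in choroid plexus markers the unadjusted p of Kcnj2 was 0.0629. Kcnj4, of the same Kir2 family, had a log2 fold change of −0.20 (SE 0.15) from 137 ± 25.6 CPM in saline to 119 ± 23.4 CPM in cocaine mice.

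The G-protein-gated channels, through which GABA-B and other inhibitory receptors act, gave unequal values. Kcnj3 (GIRK1) had a log2 fold change of −0.21 (SE 0.11) from 238 ± 28.0 CPM in saline to 206 ± 30.7 CPM in cocaine mice. Kcnj6 (GIRK2) had a log2 fold change of −0.30 (SE 0.18) from 58.8 ± 9.32 CPM in saline to 47.6 ± 14.3 CPM in cocaine mice. The level of Kcnj6 was 40.3, 67.5, 47.9, 53.2 and 29.2 CPM in the 5 cocaine libraries in order and 74.9, 53.9, 51.3, 55.9 and 58.0 CPM in the 5 saline libraries. Kcnj6 was lowest in cocaine replicate 5 and highest in saline replicate 1, and had a log2 fold change of 0.01 once the oligodendrocyte score was a covariate. Kcnj9 (GIRK3) had a log2 fold change of 4.67e-05 (SE 0.09) from 168 ± 15.3 CPM in saline to 168 ± 18.5 CPM in cocaine mice, which leaves its means almost equal. Kcnj11, the Kir6.2 pore of the ATP-sensitive channel, had a log2 fold change of −0.09 (SE 0.11) from 66.2 ± 5.03 CPM in saline to 62.1 ± 10.5 CPM in cocaine mice.

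Kcnj10 stood at 282, 159.8, 195, 199.6 and 259 CPM in cocaine replicates 1 to 5 and at 224, 267, 283, 203 and 251 CPM in saline replicates 1 to 5. In Kcnj10, encoding Kir4.1, cocaine replicates 2 to 4 lay below every saline library and replicates 1 and 5 lay inside the saline range. Means were 219 ± 50.1 CPM in cocaine mice and 246 ± 32.4 CPM in saline mice (SD over 5 mice each; log2 fold change −0.17, SE 0.14; unadjusted p = 0.271 and adjusted p = 0.742 in edgeR). Its partner Kcnj16, encoding Kir5.1, had a log2 fold change of −0.03 (SE 0.15) from 15.4 ± 1.72 CPM in saline to 15.1 ± 3.57 CPM in cocaine mice. Both genes are known from astrocytes, and Kir4.1 also from oligodendrocytes. The 10 astrocyte markers summed to 3321 to 3704 CPM with cocaine and 3611 to 4131 CPM with saline, with 9 of 10 below a fold change of 1 and 0 called, and their part in the Kcnj10 values was not tested.

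Two-pore-domain channels were split, with 6 of 10 below 0 and a median log2 fold change of −0.01. Kcnk1 encodes TWIK-1, lies at chromosome 8, 125995170 to 126030685, and had the highest level of all members per length. In cocaine replicates 1 to 5 the level of Kcnk1 was 122, 136, 138, 139 and 137 CPM, and in saline replicates 1 to 5 it was 138, 154, 145, 150.1 and 153 CPM. Of its cocaine libraries 4 lay below every saline library, and replicate 4 stood just above saline replicate 1. The group means were 134 ± 6.89 CPM for cocaine against 148 ± 6.48 CPM for saline (SD over 5 mice each; log2 fold change −0.14, SE 0.06), with an unadjusted p of 0.0475 and an adjusted p of 0.558 in edgeR. With the Neat1, Malat1 and Meg3 share in the fit Kcnk1 was at −0.09 (unadjusted p = 0.291 in edgeR). The difference is small, and Kcnk1 had the lowest spread of the members named here, with a saline SD of 4.38% of the mean. Kcnk2, the mechanically and lipid gated channel TREK-1, had a log2 fold change of −0.01 (SE 0.14) from 55.2 ± 5.81 CPM in saline to 54.7 ± 12.5 CPM in cocaine mice, with 0.01 under upper-quartile scaling. Kcnk9, the acid-sensitive channel TASK3, had a log2 fold change of 0.32 (SE 0.21) from 56.5 ± 10.7 CPM in saline to 70.4 ± 21.3 CPM in cocaine mice. The level of Kcnk9 was 72.8, 82.4, 82.1, 81.6 and 33.0 CPM in the 5 cocaine libraries in order and 48.7, 63.8, 53.0, 71.2 and 45.8 CPM in the 5 saline libraries. The cocaine libraries lay above every saline library in replicates 1 to 4, and replicate 5 lay below all of them.

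Kcnk13 was the member that was higher at an unadjusted p under 0.05. It encodes THIK-1, known as the leak channel of microglia. Kcnk13 stood at 9.59, 5.38, 6.01, 14.1 and 11.7 CPM in cocaine replicates 1 to 5 and at 4.83, 6.28, 7.57, 5.71 and 7.28 CPM in saline replicates 1 to 5. Cocaine replicates 1, 4 and 5 lay above every saline library, and replicates 2 and 3 lay within the saline range. This gave means of 9.35 ± 3.71 CPM and 6.33 ± 1.12 CPM for cocaine and saline (SD over 5 mice each), a change in log2 of 0.56 (SE 0.24), an unadjusted p of 0.0386 and an adjusted p of 0.545 in edgeR. The same 3 libraries had the highest oligodendrocyte marker sums of all 10, at 6949, 8105 and 10466 CPM, and with that score as a covariate the log2 fold change of Kcnk13 was −0.13. The 8 microglia markers had 5 of 8 above a fold change of 1, 0 called, and summed levels of 257 to 426 CPM with cocaine and 298 to 331 CPM with saline. Kcnk5, encoding TASK-2, was higher in the same 3 libraries at a very low level. In cocaine replicates 1 to 5 the level of Kcnk5 was 0.797, 0.546, 0.309, 1.16 and 0.788 CPM, and in saline replicates 1 to 5 it was 0.201, 0.347, 0.365, 0.588 and 0.563 CPM. Means were 0.721 ± 0.319 CPM in cocaine mice and 0.413 ± 0.162 CPM in saline mice (SD over 5 mice each; log2 fold change 0.80, SE 0.40; unadjusted p = 0.0645 and adjusted p = 0.582 in edgeR).

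Calcium- or sodium-activated channels had 6 of 7 genes below 0 and a median of −0.06. Kcnt1 and Kcnt2 encode the sodium-activated channels Slack and Slick, which can form mixed channels. The level of Kcnt2 was 33.0, 52.2, 35.4, 41.8 and 36.4 CPM in the 5 cocaine libraries in order and 57.5, 40.1, 46.03, 47.6 and 50.2 CPM in the 5 saline libraries. For Kcnt2, cocaine replicates 1, 3 and 5 lay below every saline library and replicate 2 lay near the top of the saline range. The group means were 39.8 ± 7.66 CPM for cocaine against 48.3 ± 6.35 CPM for saline (SD over 5 mice each; log2 fold change −0.28, SE 0.13), with an unadjusted p of 0.0482 and an adjusted p of 0.558 in edgeR. The log2 fold change of Kcnt2 was −0.14 with the oligodendrocyte score and −0.07 with the share of Neat1, Malat1 and Meg3 in the fit. Kcnt1 stood at 44.8, 21.6, 42.0, 36.0 and 23.3 CPM in cocaine replicates 1 to 5 and at 14.4, 34.1, 28.5, 22.3 and 16.7 CPM in saline replicates 1 to 5. For Kcnt1 the order of the groups was the reverse, with cocaine replicates 1, 3 and 4 above every saline library. This gave means of 33.5 ± 10.6 CPM and 23.2 ± 8.16 CPM for cocaine and saline (SD over 5 mice each), a change in log2 of 0.53 (SE 0.25), an unadjusted p of 0.0559 and an adjusted p of 0.571 in edgeR. When the fit held the share of 3 abundant nuclear RNAs (Neat1, Malat1, Meg3), Kcnt1 had a log2 fold change of −0.09. Whether the 2 genes differ in their response was not tested. Kcnma1, the BK channel opened by calcium and voltage, had a log2 fold change of −0.17 (SE 0.11) from 223 ± 16.1 CPM in saline to 198 ± 33.0 CPM in cocaine mice, and was lowest in cocaine replicate 5. The small-conductance SK genes, which carry the after-hyperpolarisation, had log2 fold changes close to 0: −0.03 for Kcnn1 (SE 0.09), −0.00489 for Kcnn2 (SE 0.13) and −0.06 for Kcnn3 (SE 0.17).

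The auxiliary subunits, which shape or carry these channels to the membrane, were tested as a list of 28 genes, of which 22 passed the low-count filter. A log2 fold change below 0 was found for 14 and above 0 for 8, with a median of −0.07, and 0 were called in edgeR over all genes. An unadjusted p under 0.05 was found for 1 lower and 1 higher gene of the 22, where 3.33% of all genes tested were lower and 5.58% higher. The lower one was Kcnab1, the Kvbeta1 subunit that gives Kv1 channels fast inactivation. In cocaine replicates 1 to 5 the level of Kcnab1 was 167, 191, 155, 169 and 145 CPM, and in saline replicates 1 to 5 it was 189, 186, 170.3, 210.2 and 214 CPM. All but cocaine replicate 2 lay below every saline library. Means were 165 ± 17.3 CPM in cocaine mice and 194 ± 18.3 CPM in saline mice (SD over 5 mice each; log2 fold change −0.23, SE 0.09; unadjusted p = 0.0229 and adjusted p = 0.524 in edgeR). The higher one was Kcnip1, a KChIP calcium sensor of Kv4 channels that interneurons carry. The level of Kcnip1 was 19.1, 13.8, 18.9, 15.2 and 19.7 CPM in the 5 cocaine libraries in order and 15.8, 17.0, 13.7, 11.1 and 10.1 CPM in the 5 saline libraries. Cocaine replicates 1, 3 and 5 lay above every saline library. The group means were 17.3 ± 2.67 CPM for cocaine against 13.5 ± 2.94 CPM for saline (SD over 5 mice each; log2 fold change 0.36, SE 0.15), with an unadjusted p of 0.0381 and an adjusted p of 0.543 in edgeR. Lrrc38, a gamma subunit of the BK channel, had a log2 fold change of 0.49 (SE 0.34) from 0.530 ± 0.2495 CPM in saline to 0.752 ± 0.190 CPM in cocaine mice with saline replicate 3 above every other library. The Kv4 partner Dpp6 had a log2 fold change of −0.12 (SE 0.09) from 526 ± 36.8 CPM in saline to 485 ± 63.4 CPM in cocaine mice, and Kcne2, also a marker of choroid plexus, had a log2 fold change of 1.08 (SE 0.84) from 2.57 ± 2.23 CPM in saline to 5.45 ± 5.25 CPM in cocaine mice. The 10 choroid plexus markers all had a fold change above 1, with summed levels of 294 to 4181 CPM with cocaine and 243 to 1751 CPM with saline, and 0 were called.

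Several members lie side by side in the genome. On chromosome 1, Kcnj9 and Kcnj10 are 11.9 kb apart, with log2 fold changes of 4.67e-05 and −0.17. On chromosome 11, Kcnj16 and Kcnj2 are 38.2 kb apart, at 3.92 and 6.53 CPM per kb in saline mice and with log2 fold changes of −0.03 and −0.58. Kcna3 and Kcna2 lie 63.1 kb apart on chromosome 3, at 2.90 and 21.2 CPM per kb. The chromosome 6 group holds Kcna5, Kcna1 and Kcna6, at 0.604, 18.2 and 16.2 CPM per kb, and the last pair differed by less than the larger SD. A difference between neighbours was not tested.

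Of the 65 members, 43 matched a gene in the RefSeq promoter table (GRCm38.p6, the mm10 assembly), with 57 windows of the 250 bases before an annotated start. The windows had a median GC content of 62.0%, against 55.6% over 21263 windows of protein-coding genes, and a median of 10 CpG sites, the same as over all of them. The letters TATAAA, searched on both strands, were found in 2 of the 57 windows (3.51%, against 11.6% of all), for Kcnj9 and Kcnj16, and the full cyclic AMP response element TGACGTCA in 0 (1.92% of all). The windows of Kcnj2, Kcnh5 and Kcnf1 are shown because these 3, of the members with a window, kept an unadjusted p under 0.05 in the most alternatives (21, 20 and 19 of 22). They are written 5′ to 3′ on the strand of the gene and end just before its start, with each CpG, the site at which DNA is methylated in mammals, in capitals. The Kcnj2 window, chr11:111065914-111066163 on the plus strand, holds 14 CpG sites at 65.6% GC, the Kcnh5 window, chr12:75177333-75177582 on the minus strand, 16 at 65.6%, and the Kcnf1 window, chr12:17176889-17177138 on the minus strand, 1 at 51.2%. The 3 genes, chosen by their p in these data, had lower means with cocaine. Of their windows 2 held more CpG sites than the median of 10, and a link between CpG sites and level was not tested.
Kcnj2: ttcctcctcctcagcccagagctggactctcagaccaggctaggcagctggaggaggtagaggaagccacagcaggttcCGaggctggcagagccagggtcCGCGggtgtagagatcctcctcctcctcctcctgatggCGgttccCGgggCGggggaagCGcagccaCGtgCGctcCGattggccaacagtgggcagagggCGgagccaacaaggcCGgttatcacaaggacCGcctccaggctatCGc
Kcnh5: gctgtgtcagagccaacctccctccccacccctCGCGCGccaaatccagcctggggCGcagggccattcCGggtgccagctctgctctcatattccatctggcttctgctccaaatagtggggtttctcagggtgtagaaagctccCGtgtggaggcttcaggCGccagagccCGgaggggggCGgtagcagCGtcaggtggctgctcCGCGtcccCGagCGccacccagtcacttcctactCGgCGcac
Kcnf1: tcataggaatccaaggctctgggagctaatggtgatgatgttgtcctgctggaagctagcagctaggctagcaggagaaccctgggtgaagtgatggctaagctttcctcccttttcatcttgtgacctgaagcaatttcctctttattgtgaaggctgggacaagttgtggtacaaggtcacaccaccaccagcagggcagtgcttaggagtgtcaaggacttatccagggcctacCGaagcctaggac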

How the data were processed

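RNA of 10 libraries was measured by sequencing. The authors deposited raw read counts per Ensembl gene, without normalization, with totals of 34991548 to 46481533 per library. Per the submitters' processing notes, cutadapt, STAR, Cufflinks, HTSeq and the build mm10 were used, without versions. Kits for directional poly(A) libraries were used, per the labels' protocols, and the strand setting of the counting is not given in the sources used here. Each library was taken as 1 mouse, as the design text gives 5 mice per group.

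Symbols, positions and exon lengths come from GENCODE M21, and 275 genes without a match hold 0.0321% of counts. Cocaine and saline were compared over 17080 genes with edgeR 4.0.16 (quasi-likelihood test, TMM factors of 0.963 to 1.03, Benjamini-Hochberg adjustment, threshold 0.05) in R 4.3.3. A log2 fold change is cocaine over saline. DESeq2 1.42.0, limma 3.58.1 voom, other scalings, covariates and left-out libraries were alternatives, and the test was tested on simulated data. Cell type markers (8 lists) and auxiliary subunits were read beside the members. The members and lists were chosen with earlier results of these data known. Named genes were, per class, those with the smallest p and the highest level, and other members were named after their values were seen. Single-gene values of 3 members, counted in the totals, are not reported here.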

Additional observations from a re-analysis of the deposited data

Results flagged for a closer look

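In 4 of 50 groups of 5 libraries tested, 1 library stood far from the others, with a gap to its nearest neighbour that took more of the range than the Dixon limit of 0.71. About 1 group in 20 does so by chance. Kcnh5, the EAG channel, was low in cocaine replicate 3, at 2.73 CPM against 4.73 CPM in the nearest library (gap 0.720 of the range). Kcnk1 was low in cocaine replicate 1, at 122 CPM against 136 CPM (0.826). The GIRK2 gene Kcnj6 was high in saline replicate 1, at 74.9 CPM against 58.0 CPM (0.714). The BK auxiliary gene Lrrc38 was high in saline replicate 3, at 0.967 CPM against 0.490 CPM (0.777). Without saline replicate 1 the log2 fold change of Kcnj6 was −0.20, without cocaine replicate 3 that of Kcnh5 was −0.39, and without cocaine replicate 1 that of Kcnk1 was −0.11.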

How the results depend on the processing

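The 5 against 5 libraries left the number of members called at 0 in all 22 alternatives. Genes called over all genes numbered 16 in DESeq2, 95 in limma voom, 0 to 129 with 1 library left out (129 without cocaine replicate 5) and 19 without cocaine replicates 1 and 5 together, a setting chosen after seeing the data, as was the granule cell score. Members lower at an unadjusted p under 0.05 numbered 4 to 15 with 1 library left out, and members higher 0 to 3. Higher members numbered 2 with upper-quartile factors (6.52% of all genes), 2 without the low-count filter (5.48%), 2 in voom (10.3%), 2 with GC and length offsets (4.99%), and 0 with the Neat1, Malat1 and Meg3 share in the fit (3.67%). The median log2 fold change of the members was −0.19 with that share and −0.13 to −0.10 with 1 library left out. That of all genes tested was 0.007 with the share and −0.007 to 0.03 with 1 library left out. With a replicate block 4 members were lower and 0 higher, where 2.25% of all genes were lower and 4.3% higher. The labels do not say that the replicate numbers pair the samples. Same-numbered libraries correlated at −0.19, −0.28, −0.24, 0.07 and 0.05 in their deviations. These values were not compared with those of other pairs, and a pairing was not tested further.

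Signs turned for several genes, and the cause was not tested. With the oligodendrocyte score Kcnc4 was at 0.0741, Kcnj6 at 0.0105, Kcnk13 at −0.13 and Kcnk2 at 0.14. Kcnk2 was also at 0.00778 with upper-quartile factors, −0.15 to 0.0838 with 1 library left out, 0.0684 without the 3 libraries richest in choroid plexus markers, 0.10 with the share covariate, 0.0541 with the granule cell score and 0.13 without cocaine replicates 1 and 5. With the share covariate Kcnt1 was at −0.0858 and Kcnk9 at −0.09. Of other members named, the sign differed in 13 of 22 alternatives for Kcnj9, 11 for Kcnn2, 4 for Kcnj11, 4 for Kcna6, 3 for Kcna5, 3 for Kcnj16, 2 for Kcnn1, 2 for Kcnn3 and 11 for Kcnh8. Depth limits mainly Kcnq1, Kcnk5, Kcng3 and Kcnh8.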

Other observations

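Several members stood further from saline in some alternatives than in the comparison of all 10 libraries. These genes were chosen after their values were seen. Kcnk9 encodes the acid-sensitive leak channel TASK3, an imprinted gene, and had a log2 fold change of 0.32 over all libraries (unadjusted p = 0.161 in edgeR). Cocaine replicate 5, at 33.0 CPM, was its lowest library. Without that library the log2 fold change was 0.50, with an unadjusted p of 0.00105 and an adjusted p of 0.0769 in edgeR, and with the share of Neat1, Malat1 and Meg3 as a covariate it was −0.09.

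Kcnj10, the glial inward rectifier Kir4.1, had a log2 fold change of −0.17 over all libraries (unadjusted p = 0.271 in edgeR). With the granule cell score as a covariate it was −0.36 (adjusted p = 0.327 in edgeR), with the oligodendrocyte score −0.45, and without cocaine replicates 1 and 5 it was −0.41 (adjusted p = 0.154). For its partner Kcnj16 the log2 fold change was −0.03 over all libraries and −0.28 without cocaine replicates 1 and 5. No member was called in any of the 22 alternatives.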
